A study of Mus musculus with 4 samples.

Results

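The small leucine-rich proteoglycans examined here are 8 secreted matrix genes, Dcn (decorin), Bgn (biglycan), Aspn (asporin), Lum (lumican), Fmod (fibromodulin), Prelp, Omd (osteomodulin) and Ogn (osteoglycin, also called mimecan). They were picked by symbol, and all 8 were found among the 21885 genes of the tables. Spatial gene expression was captured on Visium arrays, grids of barcoded spots that each cover several cells, from 1 section of each of 4 hearts. All animals were Collagen1a1-GFP mice, labelled 8 to 12 weeks old, in which a collagen promoter drives a fluorescent reporter in fibroblasts. The groups were 1 control heart without infarction and hearts taken 3 days (3 dpi, 1 heart) or 5 days (5 dpi, 2 hearts) after an infarction made by permanent ligation of the left anterior descending coronary artery. The control and the 3 dpi groups have no replicate, so differences between whole sections are given as values with counting error and no test.

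Members of this family share a small core protein built of leucine-rich repeats, to which most of them attach chondroitin, dermatan or keratan sulfate chains. They coat collagen fibrils and set fibril width and spacing, and several hold growth factors of the TGF-β family in the matrix. In an infarct, fibroblasts lay down the collagen scar on which these proteins sit, and loss of biglycan or decorin in mice is known to weaken that scar.

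The 4 sections had between 1146 and 1741 kept spots each and held between 6250183 and 11010109 UMIs (unique molecular identifiers, each standing for 1 captured transcript). Y-linked genes had 704 UMIs in the 5 dpi heart labelled female, against 1 in the heart labelled male, so both are named by their labels only, and no result below compares sexes. The 8 genes together gave 4042, 21969, 48397 and 38107 UMIs in the order control, 3 dpi, 5 dpi labelled female and 5 dpi labelled male, which is 0.108%, 0.262%, 0.507% and 0.458% of the UMIs outside mitochondrial genes. Levels below are CPM, counts scaled to a common total of non-mitochondrial UMIs, and since each transcript is counted near its end they are not divided by gene length. In a spot, fewer cells of a type and less RNA per cell cannot be told apart.

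Promoter sequences are shown for the 4 members that were higher in the infarct, Bgn, Aspn, Fmod and Ogn, and for Prelp, the genomic neighbour of Fmod with a different course. Each line gives the 120 bases that end just before the gene's annotated start, read 5′ to 3′ on the gene's own strand, from RefSeq on GRCm38.p6. Capitals mark the only match to the motifs searched.
Bgn (chrX:73483481-73483600, plus strand): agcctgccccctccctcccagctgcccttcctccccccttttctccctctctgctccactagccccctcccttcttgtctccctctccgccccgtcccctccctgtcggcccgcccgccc
Aspn (chr13:49544323-49544442, plus strand): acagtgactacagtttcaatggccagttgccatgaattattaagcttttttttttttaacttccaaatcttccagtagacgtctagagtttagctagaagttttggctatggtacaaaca
Fmod (chr1:134037134-134037253, plus strand): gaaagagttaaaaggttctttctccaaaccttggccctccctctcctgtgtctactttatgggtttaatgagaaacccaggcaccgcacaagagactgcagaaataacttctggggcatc
Ogn (chr13:49607895-49608014, plus strand): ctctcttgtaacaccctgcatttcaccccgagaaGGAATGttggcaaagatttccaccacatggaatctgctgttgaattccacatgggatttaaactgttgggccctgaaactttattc
Prelp (chr1:133921402-133921521, minus strand): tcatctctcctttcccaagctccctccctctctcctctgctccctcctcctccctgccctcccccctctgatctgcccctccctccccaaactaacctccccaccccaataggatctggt
The motifs were TATAAA (the TATA box), TGANTCA (the AP-1 site) and GGAATG (the site of TEAD factors), each on both strands. In the printed 120 bases the Ogn promoter held GGAATG, starting 86 bases before the start, and the other windows held none of these letters. Of 27025 promoters in the same table, 6.76% held TATAAA, 3.40% TGANTCA and 5.85% GGAATG in a window of that length. Over 250 bases, Ogn also held TATAAA at 227 bases and, overlapping it on the other strand, TTTATA at 229 bases before the start, and Aspn held both forms at 207 and 178 bases. In windows of 250 bases 12.97% of promoters held TATAAA. The 5 windows differed in base composition: G and C made up 71.7% of the Bgn window and 61.7% of that of Prelp, against 46.7% for Fmod, 44.2% for Ogn and 35.0% for Aspn.

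The family sits in clusters in the mouse genome, which gives neighbours to compare. On chromosome 1 Prelp lies beside Fmod, on chromosome 10 Dcn beside Lum, and on chromosome 13 the order is Aspn, Omd and Ogn, while Bgn stands apart from other members on the X chromosome. Neighbours differed in level in these hearts: Fmod was close to absent in the control where Prelp was not, and Omd stayed near its detection limit between Aspn and Ogn, which were both readily counted.

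Spots were divided by their share of UMIs from 12 cardiomyocyte genes into an infarct zone (IZ), where surviving muscle RNA was low, a border zone 2 (BZ2) within 2 spot steps of it, a border zone 1 (BZ1) at 3 to 4 steps, and a remote zone (RZ) farther out. The maps show this division beside the positions of 4 members.

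**Figure D1:**
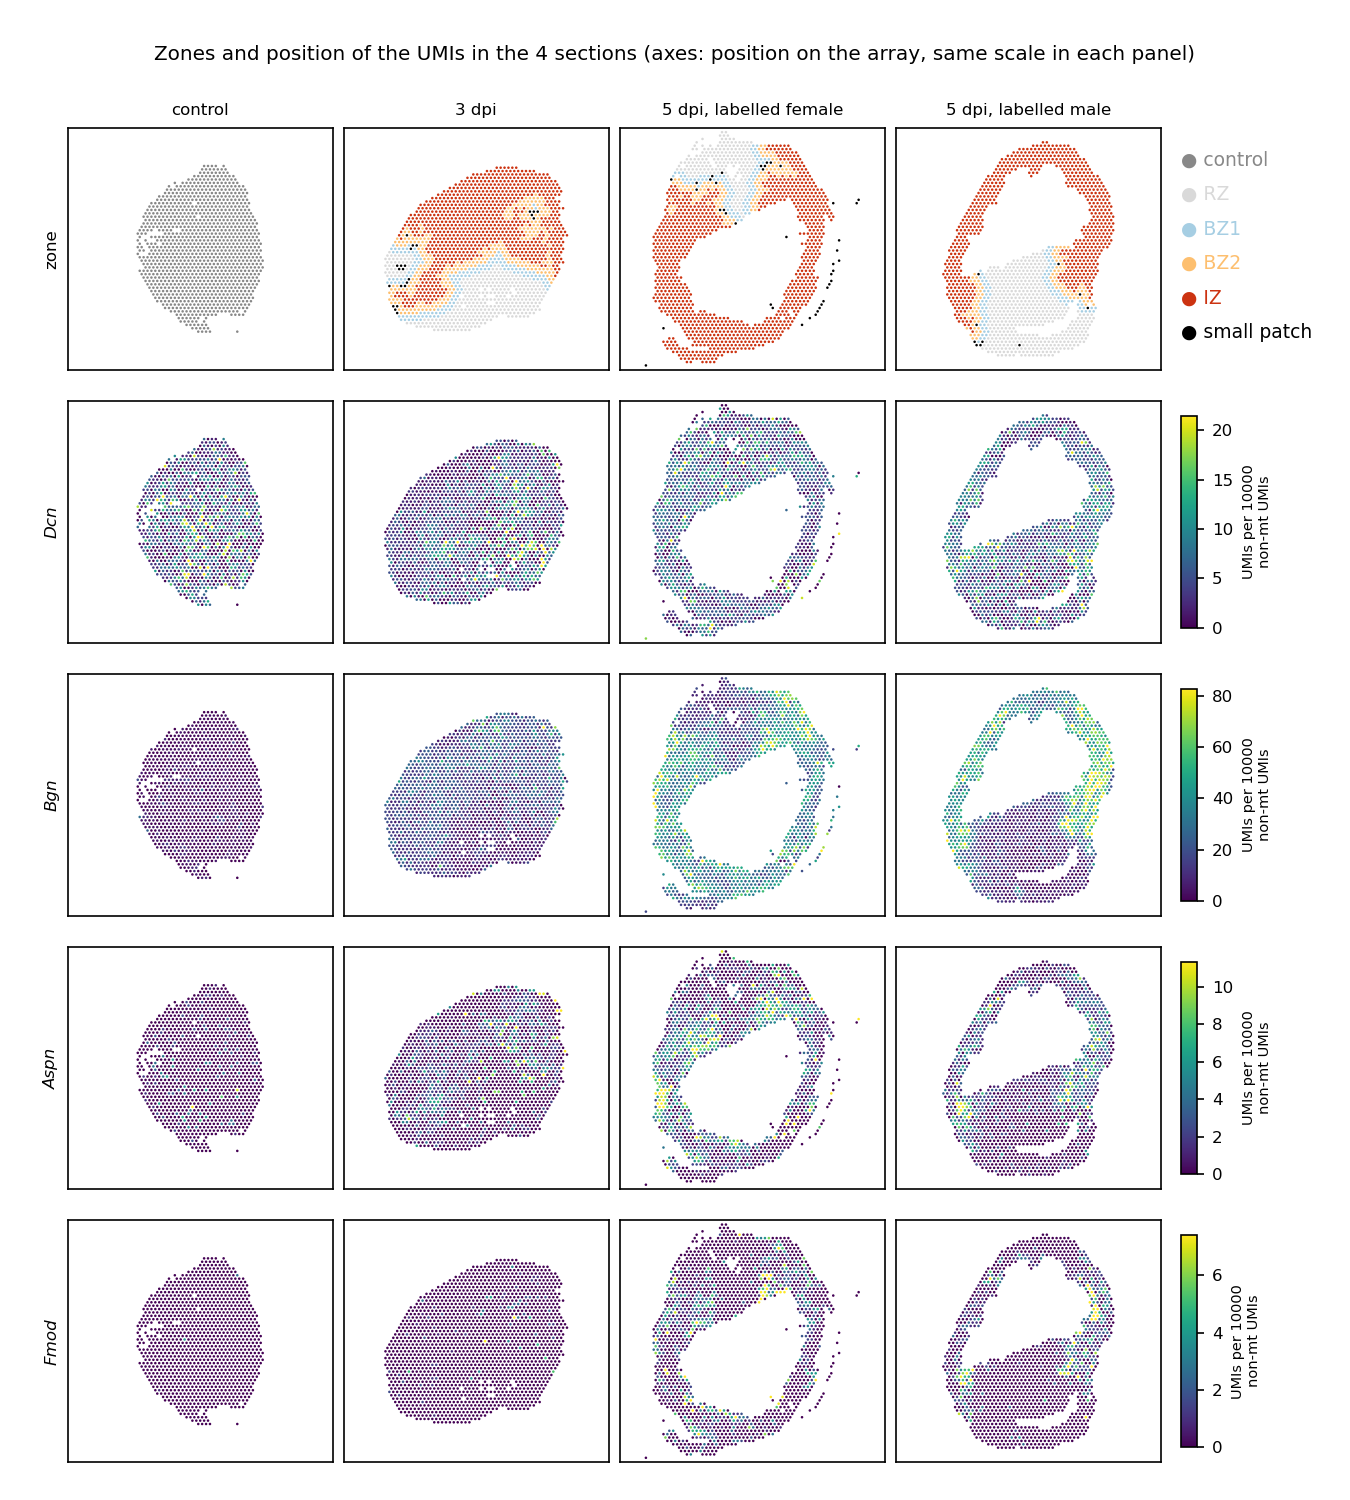
Zones and spot levels of Dcn, Bgn, Aspn and Fmod in the 4 sections, in UMIs scaled to the non-mitochondrial UMIs of the spot, with 1 colour scale per gene. Panels share 1 spatial scale, and small patches are low spots in groups of fewer than 10 that entered no zone; Fmod at 5 dpi is brightest in IZ spots near the border, while Dcn is spread over muscle and infarct.

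Across whole sections, Bgn, Fmod and Aspn stood out from the control, and the other members did not pass a rule of at least 2-fold between the control and the nearest infarcted section. Of the 7 members that reached 10 CPM in some section, 3 passed in the upward direction and 0 in the downward direction, beside 24.6% and 5.19% of all 9304 genes compared in this way. The median gene was 0.52 higher in the infarcted sections on the log2 scale, so these ratios stand on a general upward shift.

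Biglycan, a collagen-binding member that carries chondroitin or dermatan sulfate chains and can be recognised by Toll-like receptors once released, had 247 CPM (95% Poisson interval 232 to 264) in the control. The 3 dpi heart gave 1662 CPM, and the 5 dpi hearts gave 3430 CPM (labelled female) and 3071 CPM (labelled male). The ratios to the control were 6.73, 13.9 and 12.4. Every infarcted section thus lay far above the control, and both 5 dpi sections lay above the 3 dpi section by 2.06 and 1.85 times.

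Fibromodulin, which binds collagen and guides the thickening of fibrils in tendon, was almost undetected without injury. The control held 3 Fmod UMIs, 0.802 CPM, against 81 UMIs or 9.67 CPM at 3 dpi, while the 5 dpi hearts had 110 and 85.5 CPM. The ratios to the control were 12.1 (exact counting interval 3.98 to 59.7), 138 (47.0 to 669) and 107 (36.3 to 518), wide because of the 3 control UMIs. Fmod was also 11.4 and 8.84 times higher in the 5 dpi sections than at 3 dpi, beside 12.1 times between the control and 3 dpi. In that comparison of time points, Fmod and Prelp passed the 2-fold rule upward and no member passed downward, beside 1.08% and 0.242% of all genes.

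Asporin, a relative of decorin and biglycan that usually carries no sulfated chain and binds TGF-β and collagen, had 30.2 CPM in the uninjured heart and 127, 307 and 200 CPM in the infarcted hearts, in the same order. The ratios to the control were 4.21, 10.2 and 6.61. The section labelled female lay above the section labelled male, and both lay above the 3 dpi section. The IZ made up 50.7%, 69.1% and 48.1% of the kept spots of the infarcted hearts, in the same order. The part of this difference in the whole-section levels of the members was not tested.

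Decorin, the member best known for binding TGF-β and limiting fibril width, had the highest level of the family in the control, 524 CPM (501 to 547). The infarcted hearts gave 434, 581 and 614 CPM, ratios of 0.828, 1.11 and 1.17 to the control. Prelp, which links basement membranes to connective tissue, ran 52.4, 33.1, 75.6 and 79.9 CPM in the same order. Both genes were lowest at 3 dpi and highest in the 5 dpi sections, and the range of Dcn over the 4 sections was narrow beside that of Bgn.

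Lumican, a keratan sulfate member that spaces collagen fibrils, ran 132, 211, 326 and 318 CPM from control to the last of the infarcted hearts. Osteoglycin, a member found in vessel walls and bone matrix, had 93.3, 145, 240 and 213 CPM. The 3 dpi section kept both below the 2-fold rule, at 1.60 and 1.55 times the control, whereas the 5 dpi sections lay between 2.28 and 2.58 times above it. Counted over all UMIs, mitochondrial ones included, Lum and Ogn also passed the rule and the count was 5 members, beside 42.6% of 8648 genes higher and 1.55% lower on that scale. Mitochondrial UMIs were 40.1% in the control and between 13.3% and 21.4% after infarction. Osteomodulin, a keratan sulfate member of bone, had 1, 14, 18 and 17 UMIs in the 4 sections, no more than 2.04 CPM, and no statement on its course is made.

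The make-up of the family changed in the same spots, a comparison that does not depend on the denominator of CPM. Decorin supplied 48.5% of the family's UMIs in the control (exact 95% binomial interval 46.9 to 50.04) and biglycan 22.9% (21.6 to 24.2). In the RZ of the infarcted sections biglycan supplied 49.1%, 57.4% and 48.5%, and in the IZ 67.1%, 68.1% and 70.6% (mean 68.6% ± 1.77, SD, n = 3). The share of decorin was 27.7%, 24.3% and 29.5% in the RZ and 13.6%, 10.4% and 10.5% in the IZ. Fibromodulin reached 2.35% and 2.12% of the family in the 5 dpi IZ, from 0.0742% in the control.

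**Figure D2:**
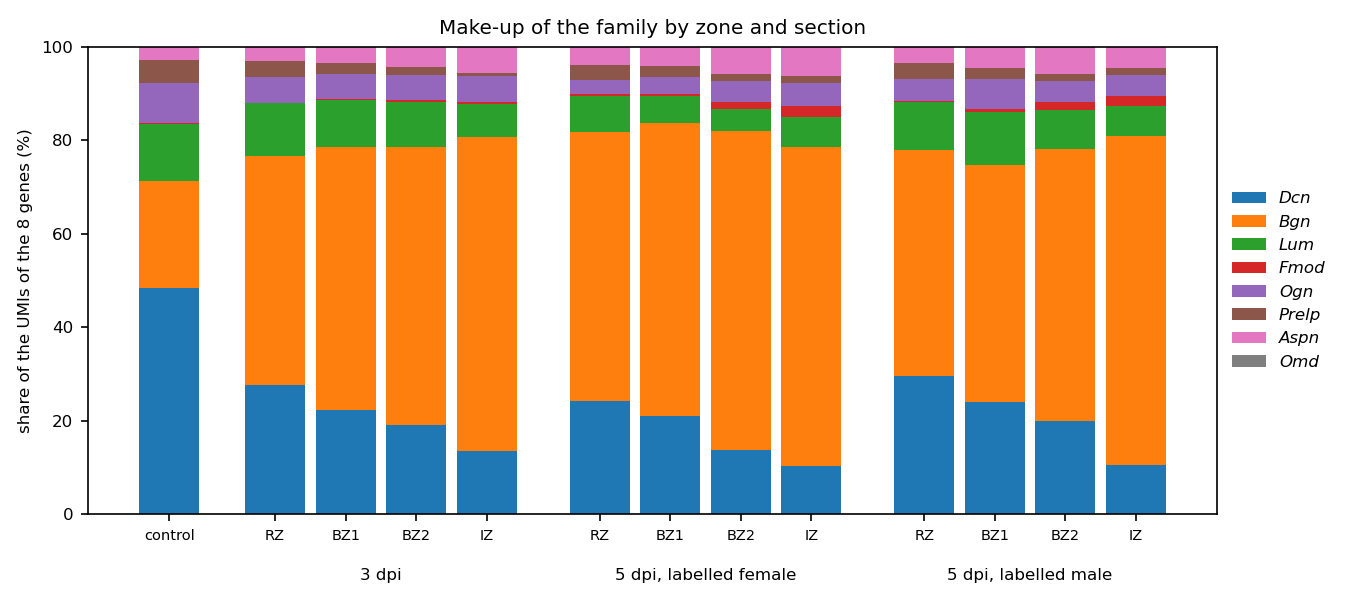
Share of each of the 8 genes in their summed UMIs, in percent, for the control and for the 4 zones of each infarcted section. The Bgn segment widens from 22.9% in the control to 67.1% or more in the IZ, and the Dcn segment narrows from 48.5% to 13.6% or less.

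Per decorin UMI there were 0.472 biglycan UMIs in the control. The ratio was 1.77, 2.36 and 1.64 in the RZ (3 dpi, 5 dpi labelled female, 5 dpi labelled male), 2.51, 2.98 and 2.11 in BZ1, 3.11, 4.95 and 2.92 in BZ2, and 4.92, 6.53 and 6.74 in the IZ. It thus rose from zone to zone toward the infarct in each of the 3 sections, and the RZ ratio already lay above that of the control in each. No test was run on this ratio.

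Muscle far from the infarct was compared with the control because it keeps its cardiomyocytes. Of the 6 members that reached 10 CPM there, Bgn passed the 2-fold rule in the RZ, at 876, 1285 and 832 CPM against 247 CPM in the control, ratios of 3.54, 5.20 and 3.36. No other member passed in either direction, beside 4.37% of 8581 genes higher and 0.245% lower. Aspn had 51.2, 87.2 and 59.6 CPM, ratios of 1.70, 2.89 and 1.97, below 2-fold at 3 dpi and in the section labelled male. Dcn stayed at 494, 544 and 506 CPM in the RZ, within 0.943 and 1.04 times the control, and Ogn at 97.9, 68.1 and 80.2 CPM. Col1a1, the collagen gene used as a reference, rose from 91.4 CPM in the control to 557, 782 and 390 CPM in the same spots. Cardiomyocyte genes made up 101295 CPM in the control and between 81801 and 98085 CPM in the RZ, and the part of this difference in the RZ values was not tested.

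The infarct zone was compared with the remote zone by edgeR's quasi-likelihood test on UMIs summed per zone and section, with the section as a block and Benjamini-Hochberg adjustment over 9444 genes. Bgn, Aspn, Fmod and Ogn were higher and Dcn was lower, 4 and 1 of the 7 members tested, while 53.8% of all genes were called, 26.8% higher and 27.0% lower. Omd was too low to be tested. The TMM scaling of this test moved all log2 fold changes by -0.42 relative to ratios of CPM, and the fold changes below include that shift.

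Fmod had 2.26, 8.36 and 6.04 CPM in the RZ and 11.6, 131 and 136 CPM in the IZ, in the order 3 dpi, 5 dpi labelled female and 5 dpi labelled male. Both 5 dpi infarcts stood far above the one at 3 dpi, where 58 IZ and 3 RZ UMIs were counted, a ratio of 5.15 (exact counting interval 1.68 to 25.7). The log2 fold change over the sections was 3.64 ± 0.27 (SE; adjusted p = 5.09e-10, edgeR).

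Aspn had 51.2, 87.2 and 59.6 CPM in the RZ and 160, 347 and 282 CPM in the IZ, so the zones did not overlap. Its log2 fold change was 1.56 ± 0.14 (SE; adjusted p = 8.05e-09, edgeR). Bgn had 1948, 3788 and 4520 CPM in the IZ against the RZ levels given above, again without overlap, with a log2 fold change of 1.33 ± 0.18 (SE; adjusted p = 2.52e-06, edgeR). Ogn had 97.9, 68.1 and 80.2 CPM in the RZ and 161, 272 and 294 CPM in the IZ, with a log2 fold change of 1.10 ± 0.19 (SE; adjusted p = 4.92e-05, edgeR). All 4 were higher in the IZ in 3 of 3 sections.

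Dcn passed the test with a log2 fold change of -0.35 ± 0.13 (SE; adjusted p = 0.0323, edgeR), but its CPM went down in 1 of 3 sections. Its IZ levels were 396, 580 and 671 CPM against 494, 544 and 506 CPM in the RZ, log2 ratios of -0.32, 0.09 and 0.41. Without TMM scaling its log2 fold change was 0.07, so the direction depends on the scaling, and the call was also lost without the 3 dpi section (-0.12) or without the 5 dpi section labelled female (-0.39).

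Lum measured 201, 177 and 176 CPM in the RZ and 204, 363 and 402 CPM in the IZ, equal at 3 dpi and higher in the infarct in both 5 dpi sections. Its log2 fold change of 0.37 ± 0.19 (SE; adjusted p = 0.1002, edgeR) did not pass, and without the 3 dpi section it was 0.76 (adjusted p = 4.83e-05, edgeR). Prelp measured 62.5, 68.1 and 56.0 CPM in the RZ and 20.8, 76.9 and 97.3 CPM in the IZ. Its zones thus ran in opposite directions at 3 and 5 dpi, with log2 ratios of -1.58, 0.18 and 0.80, and the fitted value of -0.48 ± 0.28 (SE; adjusted p = 0.155, edgeR) did not pass. Without the 5 dpi section labelled male, Prelp was called lower at -1.001 (adjusted p = 0.0210, edgeR).

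**Figure D3:**
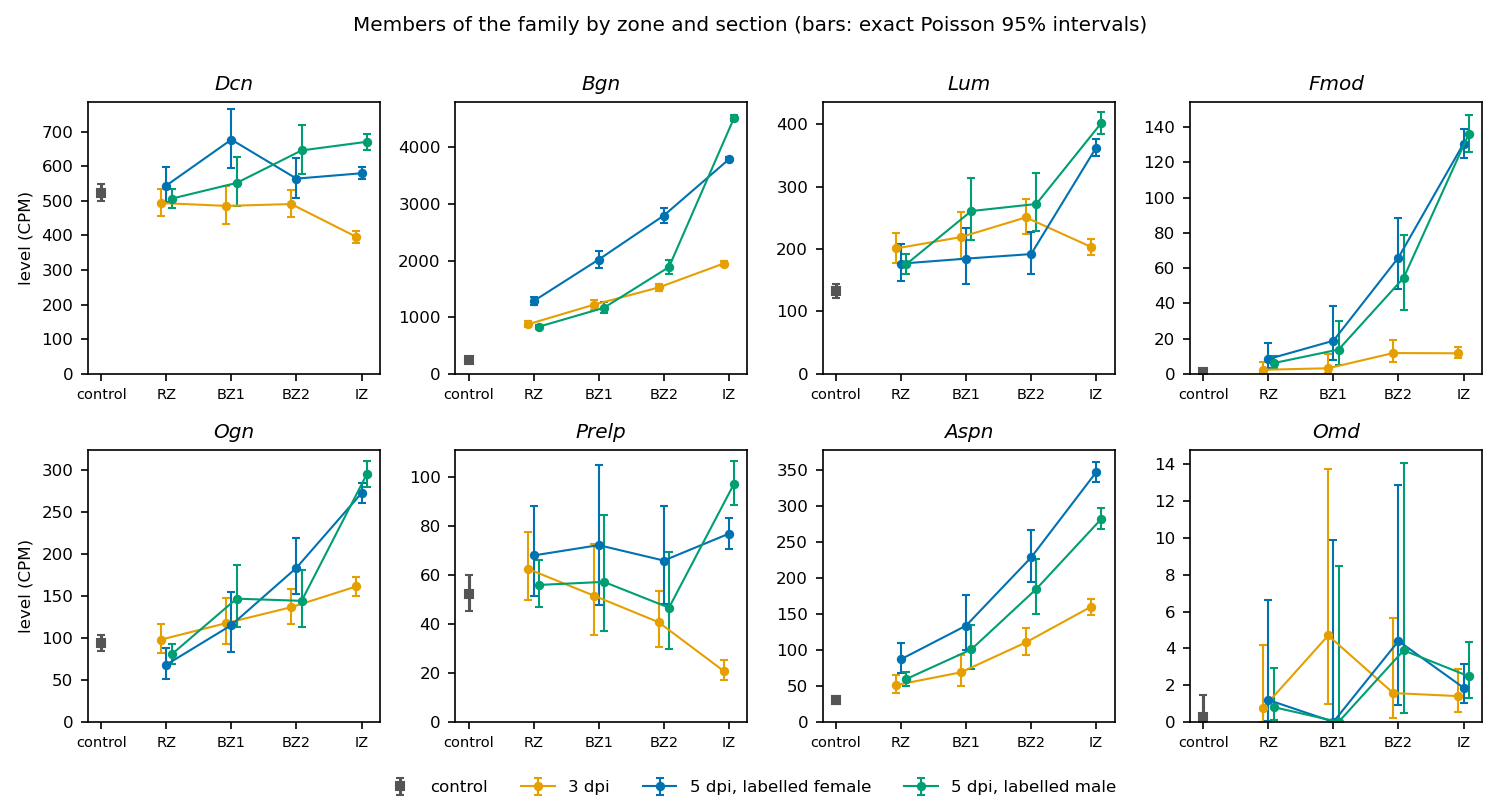
Level of each member in CPM in the control and in the RZ, BZ1, BZ2 and IZ of the 3 infarcted sections, with exact Poisson 95% intervals that cover counting error only. Bgn, Aspn, Fmod and Ogn climb toward the IZ in each infarcted section apart from a flat step of Fmod at 3 dpi (11.8 and 11.6 CPM) and of Ogn in the section labelled male (147 and 144 CPM), while Prelp falls to 20.8 CPM at 3 dpi and ends at 76.9 and 97.3 CPM at 5 dpi.

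Between 3 and 5 dpi the infarct zones differed most in Fmod and Prelp. Fmod was 11.2 and 11.7 times and Prelp 3.69 and 4.67 times higher in the 5 dpi IZ than in the 3 dpi IZ. These were the 2 members that passed the 2-fold rule upward and none passed downward, beside 1.60% and 1.88% of 9232 genes. Bgn (1.94 and 2.32 times), Aspn (2.17 and 1.76 times), Lum (1.78 and 1.98 times), Ogn (1.69 and 1.83 times) and Dcn (1.46 and 1.69 times) were also above the 3 dpi value in both sections. In the RZ no member passed, beside 1.26% of genes higher and 0.743% lower, and the RZ level of Ogn was below that at 3 dpi in both sections (0.695 and 0.819 times). With 1 heart at 3 dpi none of these differences was tested.

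The 4 members that were higher in the infarct were also higher at its inner border. In BZ2 against RZ, the same edgeR test called Fmod, Aspn, Bgn and Ogn higher and no member lower, 4 of 7, where 9.01% of all genes were called, 4.21% higher and 4.80% lower. Fmod had 11.8, 66.0 and 54.5 CPM in BZ2, a log2 fold change of 2.98 ± 0.33 (SE; adjusted p = 1.09e-05, edgeR). Aspn had 110 (3 dpi), 229 and 185 CPM and a log2 fold change of 1.24 ± 0.15 (SE; adjusted p = 3.23e-05, edgeR). Bgn had 1524, 2795 and 1885 CPM (0.87 ± 0.18; adjusted p = 0.00321, edgeR), and Ogn 136, 183 and 144 CPM (0.74 ± 0.20; adjusted p = 0.0260, edgeR). Every one of these BZ2 levels exceeded the RZ level of its own section. Dcn (-0.02 ± 0.14; adjusted p = 0.958, edgeR) and Prelp (-0.41 ± 0.33; adjusted p = 0.536, edgeR) were not called, though all 3 sections had less Prelp in BZ2 than in RZ. Cell type markers moved with these values: in BZ2 against RZ 7 of 8 of activated fibroblasts were higher, their sum at 4358 to 7435 CPM against 1626 to 2651 CPM. Of the macrophage markers 3 of 8 were higher, summing to 1930 to 2759 CPM against 1260 to 1664 CPM, and all 4 erythroid markers were lower, at 3632 to 12457 CPM against 6873 to 33250.5 CPM. Of the cardiomyocyte markers, whose share defined the zones, 7 of 12 were lower. Their part in the BZ2 values was not tested. Without the 5 dpi section labelled female, Fmod and Aspn passed and Bgn and Ogn did not, a count of 2. Without the section labelled male Ogn was not called (0.72), and without the section as a block the count was 0.

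In BZ1 against RZ no member passed, where 0.0741% of all genes were called, 0.0635% higher and 0.0106% lower, 7 genes in all. At an unadjusted p under 0.05 edgeR gave 4 members, Fmod (log2 fold change 1.07), Aspn (0.51), Ogn (0.50) and Bgn (0.44), each higher in 3 of 3 sections, beside 9.88% of all genes at that level, and DESeq2 called no member. The BZ1 levels of Aspn were 68.9, 134 and 101 CPM and those of Bgn 1218, 2018 and 1166 CPM, between RZ and BZ2 in every section.

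From BZ2 into the IZ, Fmod (0.66 ± 0.21; adjusted p = 0.0189, edgeR) and Bgn (0.46 ± 0.18; adjusted p = 0.0494, edgeR) were called higher and no member lower, where 34.4% of all genes were called, 14.5% higher and 19.9% lower. Fmod did so at 5 dpi, with log2 CPM ratios of 0.99 and 1.32, and not at 3 dpi, with -0.02. Neither gene passed at a zone limit of 0.4, with DESeq2, without the section as a block, or without 1 of the 5 dpi sections, whichever was left out. Bgn also did not pass with the spots outside the tissue mask added (adjusted p = 0.0635, edgeR), whereas 4 members passed without the 3 dpi section. Aspn (0.33 ± 0.13, adjusted p = 0.0658, edgeR) and Dcn (-0.33 ± 0.14, adjusted p = 0.0685, edgeR) fell short of the threshold. Cell type markers also moved: all 8 of macrophages, all 3 tested of neutrophils and 6 of 8 of activated fibroblasts were higher. Lower were 2 of 10 of resting fibroblasts, 4 of 6 endothelial and 3 of 6 mural markers, with 2 mural ones higher. All 12 cardiomyocyte markers, whose share defined the zones, were lower. The part of these shifts in the IZ values was not tested.

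**Figure D4:**
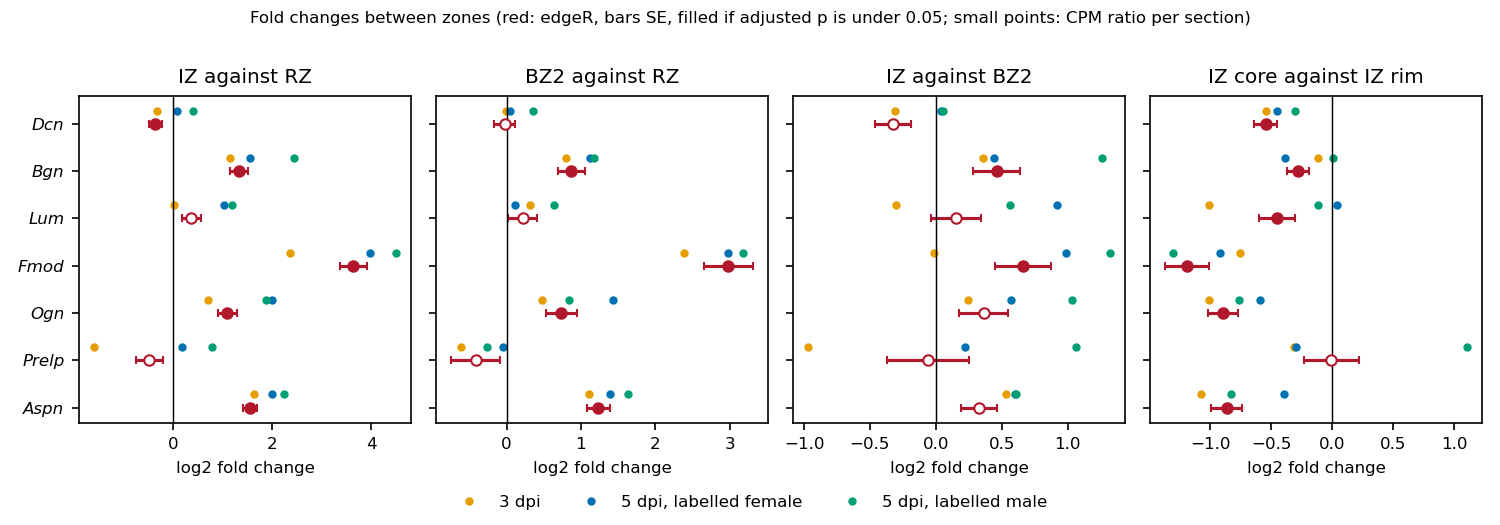
Log2 fold changes of 7 members in 4 comparisons from edgeR's quasi-likelihood test (red, bars give the SE, filled where the adjusted p is under 0.05), with the log2 ratio of CPM in each section as small points. Fmod, Aspn, Bgn and Ogn lie to the right of 0 in the first 2 panels, 6 filled members lie to the left of 0 for core against rim, and the points of Prelp lie on both sides of 0 in 3 of the 4 panels.

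Inside the infarct, levels differed with the distance from surviving muscle. IZ spots were split into a rim of 1 to 2 steps from the nearest non-IZ spot, a middle layer, and a core more than 4 steps away. The edge of the tissue was not counted, so spots of the outer surface, compared below, can lie in any layer, the core included. Of 9634 genes tested by edgeR, 23.8% were called, 10.9% higher and 12.9% lower in the core, and 6 of 7 members were called lower and none higher.

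Fmod had 16.6, 214 and 268 CPM in the rim and 9.82, 113 and 109 CPM in the core, a log2 fold change of -1.19 ± 0.18 (SE; adjusted p = 6.21e-05, edgeR). Ogn had 209, 368 and 437 CPM in the rim and 104, 244 and 257 CPM in the core (-0.90 ± 0.12; adjusted p = 1.92e-05, edgeR). Aspn had 216, 421 and 439 CPM in the rim and 103, 320 and 248 CPM in the core (-0.87 ± 0.13; adjusted p = 5.36e-05, edgeR). These 3 genes were lower in the core in each of the 3 sections, and their rim levels were the highest of any zone or layer except for Ogn in the section labelled male, whose middle layer had 487 CPM.

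Dcn had 469, 733 and 797 CPM in the rim and 322, 537 and 646 CPM in the core (-0.55 ± 0.10; adjusted p = 0.000357, edgeR), also in 3 of 3 sections. The falls of Lum (-0.45 ± 0.15; adjusted p = 0.0336, edgeR) and Bgn (-0.28 ± 0.09; adjusted p = 0.0339, edgeR) were smaller and held in 2 of 3 sections. For Lum the 3 dpi section gave 257 CPM in the rim and 128 in the core, against 346 and 356 CPM and 428 and 395 CPM at 5 dpi. Without the 3 dpi section the fold change of Lum was -0.17 and not called, and neither Lum without the section labelled male nor Bgn without the section labelled female passed. Prelp did not change on balance (-0.01 ± 0.22; adjusted p = 0.995, edgeR), with 49.4 CPM in the rim and 106 CPM in the core of the section labelled male and the opposite order in the other sections. Without the section as a block no member was called.

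Other cells moved along the same axis. Of 8 macrophage markers, 8 were higher in the core, and their summed level ranged from 4481 to 6216 CPM in the 3 rims and from 8005 to 10635 CPM in the 3 cores. All 3 neutrophil markers tested were higher too, led by S100a8 (2.14 ± 0.20; adjusted p = 4.28e-07, edgeR). Cardiomyocyte genes, which set the zones, were lower for 12 of 12. Of 9 markers of resting fibroblasts tested 5 were lower in the core and none higher, with summed levels of 1319 to 2391 CPM in the rims and 864 to 1789 CPM in the cores. Of 8 markers of activated fibroblasts 3 were lower, among them Ptn (-1.18 ± 0.13; adjusted p = 2.23e-06, edgeR) and Postn (-0.91 ± 0.11; adjusted p = 3.59e-06, edgeR), and 1 was higher, Acta2 (0.77 ± 0.16; adjusted p = 0.00116, edgeR). Their summed level was 8957, 15751 and 15652 CPM in the rims and 7636, 18054 and 16190 CPM in the cores. Of 6 mural markers 3 were lower, of 3 mesothelial markers tested 2, and of 6 endothelial markers 2, and none of these lists had a higher marker. The part of these shifts in the lower core levels of the family was not tested. Counted per 100 UMIs of Col1a1 in the same spots, Fmod had 0.557, 3.997 and 6.55 in the rim and 0.332, 1.74 and 2.02 in the core, and Ogn 7.03, 6.86 and 10.7 against 3.51, 3.76 and 4.76.

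Along the share of cardiomyocyte UMIs per spot, Fmod, Ogn, Aspn and Bgn showed the same order at 5 dpi and Lum did not. In the 5 dpi sections Fmod was highest where that share was 0.1 to 0.25 times the section's 90th percentile, at 235 and 195 CPM, and lower in spots nearly free of cardiomyocyte RNA (under 0.1), at 106 and 110 CPM. Ogn had 374 and 348 CPM against 252 and 279 CPM in these bins, and Aspn 443 and 333 CPM against 320 and 261 CPM. Bgn had 4596 and 4737 CPM against 3582 and 4574 CPM. Lum was highest in the poorest bin, at 386 and 432 CPM against 342 and 372 CPM, and Dcn had 555 and 679 CPM there against 668 and 654 CPM, so its sections differed in order. Col1a1 was also highest in the poorest bin, from 6047 and 4860 CPM to 6685 and 5708 CPM. At 3 dpi Fmod and Aspn peaked in the bin of 0.25 to 0.5, at 16.2 and 175 CPM. Prelp at 3 dpi declined over all 5 bins, from 55.7 CPM in spots richest in cardiomyocyte RNA to 13.3 CPM in the poorest.

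**Figure D5:**
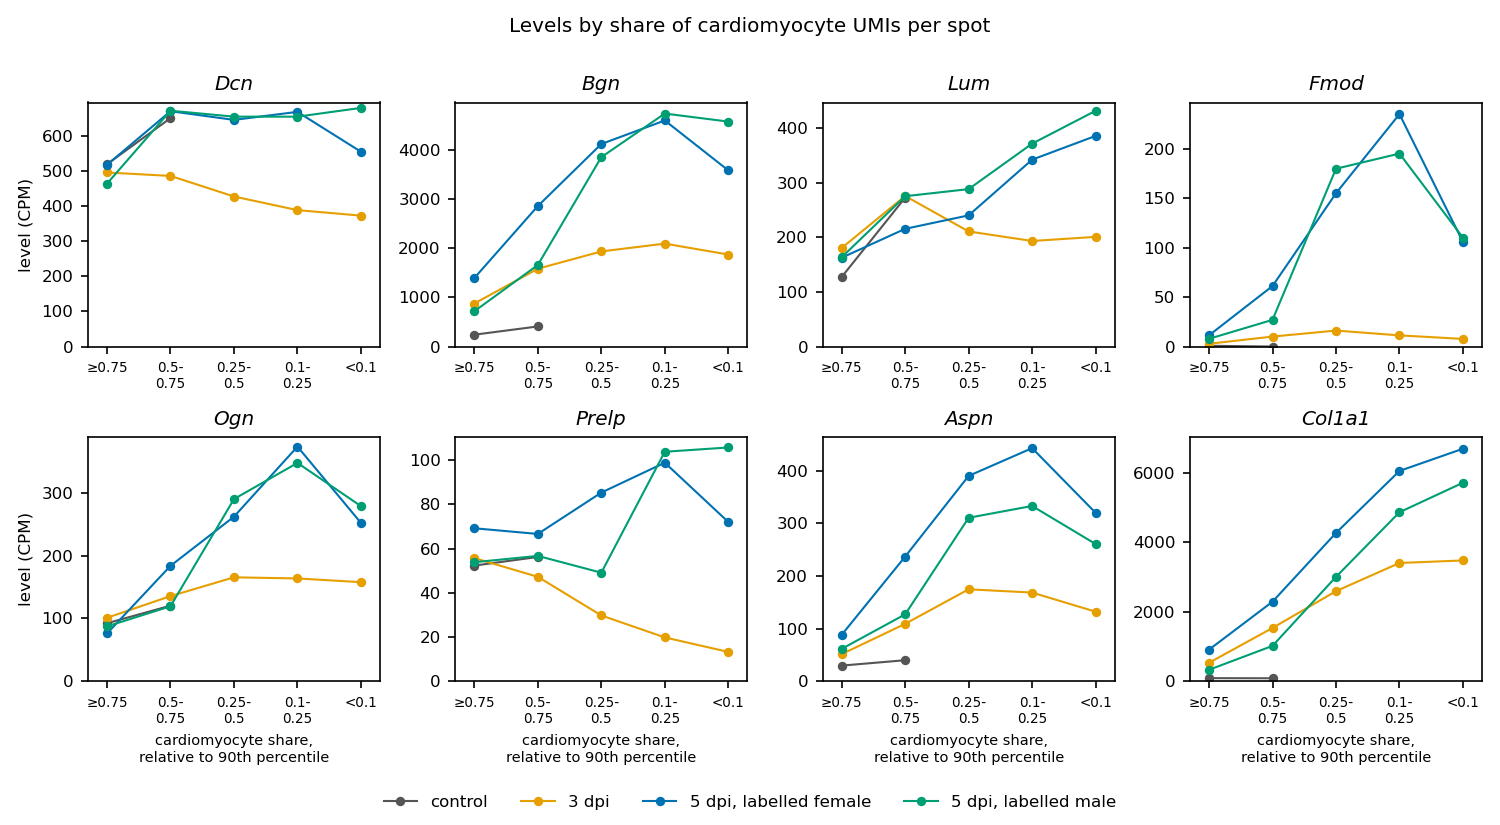
Level in CPM of 7 members and Col1a1 in bins of the spot's cardiomyocyte share relative to the section's 90th percentile, muscle at the left and infarct at the right, for bins of at least 20 spots. Fmod, Ogn, Aspn and Bgn at 5 dpi peak in the bin of 0.1 to 0.25 and drop in the bin under 0.1, Col1a1 does not drop, and Prelp at 3 dpi falls throughout.

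The outer surface of the heart was set against the inner spots, since fibroblasts of the epicardium lie there. Within the IZ, spots within 1 step of the outside had 104.8, 181 and 183 CPM of Ogn against 163, 286 and 296 CPM farther in (-0.77 ± 0.19; adjusted p = 0.00958, edgeR), and 0, 86.0 and 70.3 CPM of Fmod against 12.0, 137 and 137 CPM (-0.84 ± 0.22; adjusted p = 0.0225, edgeR). These 2 of 7 members were called lower and none higher, where 0.991% of 11099 genes were called, 0.460% lower and 0.532% higher. The 0 at 3 dpi was 0 UMIs, which allows up to 19.7 CPM at 3 counts. Mesothelial markers, which mark the epicardial surface, were higher there for 4 of 5 tested, and their part in these values was not tested. The section labelled male had 13 such spots, and neither gene passed without the 3 dpi section or without the section labelled female. Both calls were also lost with DESeq2 and without the section as a block, and that of Fmod at a zone limit of 0.6, without scaling beyond library size, and without cardiomyocyte markers in the library size. In muscle (RZ and control), 0 of 6 members tested passed, where 0.101% of 5928 genes were called, 0.0675% higher and 0.0337% lower. At an unadjusted p under 0.05 edgeR gave 3 members, Bgn (0.36), Lum (-0.56) and Aspn (-0.73), beside 5.5% of all genes at that level, and DESeq2 called 0.

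Set against Col1a1, the collagen gene of the scar, most members were lower in the infarct, and set against Pdgfra, a receptor of fibroblasts, some were higher. Per 100 Col1a1 UMIs there were 573 Dcn UMIs in the control, 88.6, 69.6 and 130 in the RZ and 12.6, 9.17 and 12.9 in the IZ. For Bgn the numbers were 270 in the control, 157, 164 and 213 in the RZ, and 62.0, 59.9 and 86.7 in the IZ. Lum, Ogn, Prelp and Aspn also had fewer UMIs per Col1a1 UMI in the IZ of each section than in the control. Fmod had 0.877 in the control, from 3 UMIs, and 0.370, 2.07 and 2.61 in the IZ. Per 100 UMIs of Pdgfra, which had 63 UMIs in the control, Bgn had 1468 in the control and 4398, 8826 and 14294 in the IZ, and Aspn 179 against 362, 809 and 893. Dcn had 3111 in the control and 894, 1351 and 2122 in the IZ, lower on this scale too. Pdgfra itself was called higher in the IZ than in the RZ, with a log2 fold change of 0.64 ± 0.20 (SE, adjusted p = 0.0104, edgeR).

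The spread of single spots followed the levels. Bgn was counted in 49.2% of control spots and in 98.1%, 99.8% and 100% of IZ spots, with up to 97 UMIs in a spot. Fmod was counted in 0.262% of control spots, 5.78% of IZ spots at 3 dpi, and 41.0% and 47.8% at 5 dpi. These shares also reflect depth, since a control spot held a median of 2976 non-mitochondrial UMIs and an IZ spot between 5516 and 6973. Dcn, whose CPM changed little, was counted in 70.7% of control spots and in 72.7%, 87.0% and 94.0% of IZ spots.

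Members resembled each other to different degrees over 13 profiles, the 4 zones of 3 sections and the control. The Pearson correlation of log2(CPM + 1) was 0.965 for Aspn with Fmod, 0.955 for Aspn with Bgn and 0.771 for Dcn with Prelp, whereas Prelp with Aspn gave 0.187 and Dcn with Ogn 0.305. The profiles share libraries and a gradient of muscle RNA, so these values describe and carry no test. The non-member genes nearest to Bgn were C1qtnf6 (0.992), Loxl1 (0.989) and Pcolce (0.987), the latter genes acting in elastin crosslinking and collagen maturation. Those nearest to Aspn were Pmepa1, Col5a2 and Col16a1 (0.985 to 0.979), a TGF-β-induced gene and collagens, and those nearest to Fmod were Serpinb1a, Pdlim2 and Npdc1 (0.963 to 0.956), none of which recurred at a pseudocount of 5, where Rflnb, Ddah1 and Comp took their place (0.948 to 0.945). Dcn was closest to Vamp5 (0.879), Ltbp4 and Ndufa4l2, Prelp to Serping1 (0.845), Cpq and Gaa, Ogn to Otulinl (0.927), Glis2 and Ski, and Lum to Psmd9 (0.925), Psmd8 and Tbc1d17.

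Genes that build, bind or cut these proteins were taken from lists, whose counts stand beside 26.8% of all genes higher and 27.0% lower in IZ against RZ, 4.21% and 4.80% in BZ2 against RZ, and 10.9% and 12.9% in core against rim. Among enzymes of glycosaminoglycan chain synthesis, which make the sulfated chains, 14 of 20 tested were higher in IZ than in RZ and 1 lower, led by the chondroitin sulfotransferases Chst11 (2.63 ± 0.41; adjusted p = 1.62e-05, edgeR) and Chst12 (1.97 ± 0.23; adjusted p = 2.96e-07, edgeR). Their median log2 fold change was 0.92 against 0.05 over all genes. In BZ2 2 of 20, Chpf2 and Chpf, were higher, with a median of 0.39 over the list against 0.02 over all genes, and in the core against the rim 3 of 21 were higher and 0 lower.

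Among collagens and their partners, 17 of 18 were higher in the IZ and 1 lower, and 16 and 1 in BZ2, with a median log2 fold change of 1.91 in the IZ. The crosslinking oxidase Lox had a log2 fold change of 3.04 ± 0.16 (adjusted p = 3.91e-12, edgeR) and Loxl3 of 3.00 ± 0.20 (adjusted p = 8.81e-11, edgeR). Tnxb, a tenascin that binds collagen fibrils, fell by 3.19 on the log2 scale (adjusted p = 4.60e-11, edgeR). In the core against the rim 6 of the 18 were lower and 2 higher, the latter near the share of all genes, with Col6a1 and Col6a2, chains of a collagen that binds biglycan and decorin, both at -0.72.

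Of 13 receptors and growth factors bound by the family, 10 were higher and 1 lower in the IZ, among them Tgfb3 (1.88 ± 0.20; adjusted p = 7.44e-08, edgeR) and Egfr (1.66 ± 0.30; adjusted p = 8.84e-05, edgeR), a decorin receptor, while the VEGF receptor Kdr was lower (-1.48 ± 0.18; adjusted p = 4.19e-07, edgeR). Of 11 proteases that can cut these proteins 8 were higher and none lower, with Mmp12 at 4.32 ± 0.32 (adjusted p = 4.22e-10, edgeR) and Mmp9 at 2.62 ± 0.47 (adjusted p = 7.20e-05, edgeR). Both proteases were also higher in the core than in the rim, Mmp9 by 3.18 ± 0.29 and Mmp12 by 1.79 ± 0.29 (adjusted p = 3.81e-07 and 0.000128, edgeR). In that comparison 5 of 12 proteases were higher and 2 lower, the latter Mmp2 (-0.54 ± 0.13; adjusted p = 0.00406, edgeR) and Htra1 (-0.41 ± 0.12; adjusted p = 0.0201, edgeR).

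Among 10 further genes of the leucine-rich proteoglycan superfamily, 3 could be tested: Tsku was higher (1.21 ± 0.34; adjusted p = 0.00506, edgeR) and Podn lower (-1.20 ± 0.38; adjusted p = 0.0119, edgeR) in the IZ, and Ecm2, the neighbour of Aspn, was lower in the core than in the rim (-1.32 ± 0.18; adjusted p = 1.71e-05, edgeR). Other proteoglycans gave 8 higher and 1 lower of 13, with Sdc1 at 2.46 ± 0.21 and the glypican Gpc1 at -2.15 ± 0.13 (adjusted p = 2.99e-09 and 3.18e-11, edgeR). In the core against the rim 6 of 15 were higher and 4 lower, with the cartilage proteoglycan Acan at 2.06 ± 0.34 and Srgn, the proteoglycan of blood cell granules, at 1.29 ± 0.15 (adjusted p = 0.000183 and 2.82e-06, edgeR). Tendon and cartilage matrix genes gave 6 higher and 0 lower of 7, with Comp, a fibril-assembly protein of tendon, at 3.11 ± 0.36 (adjusted p = 3.47e-07, edgeR), and 5 of 8 were lower in the core, with Cilp at -2.68 ± 0.12 and Thbs4 at -1.93 ± 0.12 (adjusted p = 2.71e-10 and 2.66e-08, edgeR).

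Fibroblast markers moved in both directions. All 8 markers of activated fibroblasts were higher in the IZ, with Cthrc1 at 3.68 ± 0.18 and Fn1 at 3.19 ± 0.16 (adjusted p = 3.07e-12 and 2.74e-12, edgeR). Of 10 markers of resting fibroblasts 6 were lower and 2 higher, with Scara5 at -4.42 ± 0.60 and Pi16 at -1.94 ± 0.23 (adjusted p = 2.51e-06 and 4.18e-07, edgeR). The 2 higher ones were Mfap5 at 0.73 ± 0.13 and Pdgfra at 0.64 ± 0.20 (adjusted p = 0.000106 and 0.0104, edgeR). The summed level of the resting list was 2242 CPM in the control, 1405 to 2069 CPM in the RZ and 1102 to 1852 CPM in the IZ, and that of the activated list 505 CPM, 1626 to 2651 CPM and 8714 to 17740 CPM. All 8 macrophage markers were higher in the IZ as well, their sum ranging from 1260 to 1664 CPM in the RZ and from 6488 to 10160 CPM in the IZ, and no marker of either fibroblast list was without UMIs in the IZ. All 3 neutrophil markers tested were higher in the IZ and all 4 erythroid markers lower. Of 6 endothelial markers 4 were lower and none higher, and of 6 mural markers 3 were lower and 2 higher. The part of these shifts in cell makeup in the levels of the 8 genes was not tested.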

How the data were processed

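Per the labels and the study's methods, frozen heart sections were profiled on Visium arrays, and the authors deposited raw UMI counts per gene and spot from Space Ranger 1.3.1 (mm10 is the build the labels name), together with spot positions in which tissue was masked by hand. The study's methods describe instead an Ensembl-based reference with the GFP gene added, and these accounts were not reconciled here. Spots under tissue were dropped here if they held fewer than 500 UMIs or 250 genes, or if mitochondrial genes took over 50% of the UMIs. Zones came from 12 cardiomyocyte genes: a spot was low below 0.5 times the 90th percentile of its section, and patches of at least 10 low spots formed the IZ. The 8 members and the gene lists were chosen with earlier results of these data known. All members were named in every comparison, with at most 4 called genes per list (the highest and the lowest) and the 3 genes most like each member.

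Counts were summed per zone and section and tested with edgeR 4.0.16 (quasi-likelihood test, TMM, low counts filtered, section as a block, Benjamini-Hochberg adjustment, threshold 0.05) in R 4.3.3. The script was tested on simulated data. With the section as a block, p-values measure how differences between zones or layers varied from heart to heart. All sums of a fit share a spread per gene. The hearts were the 3 infarcted ones, joined by the control in the muscle surface test. The lone 3 dpi heart is assumed to vary like the others. Poisson and binomial intervals are exact at 95% and cover counting error only. DESeq2 1.42.0, other zone limits, filters and denominators, no block and leaving out each section were alternatives. Promoters were matched for 6 of 8 members. Protein features were not analysed here.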

Additional observations from a re-analysis of the deposited data

Results flagged for a closer look

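In 11 of 48 cases (22.9%), each a member in a comparison, the log2 ratio of CPM had one sign in the 3 dpi section and the other in both 5 dpi sections, as it did for 16.7% of all genes over the same comparisons. Several of the 11 include ratios close to 0, so the count is no result about the members. The difference between the time points was not tested, since 1 heart stands at 3 dpi. Prelp in IZ against RZ was -1.58 at 3 dpi and 0.18 and 0.80 at 5 dpi. In IZ against BZ2 it was -0.97, then 0.22 and 1.06, and in BZ1 against RZ -0.27, then 0.09 and 0.03. Dcn was -0.32 in IZ against RZ, then 0.09 and 0.41. It was -0.31 in IZ against BZ2, then 0.04 and 0.05. In both border zones against RZ the 3 dpi value of Dcn was close to 0, at -0.00879 in BZ2 (0.05 and 0.35 at 5 dpi) and -0.0245 in BZ1 (0.31 and 0.12). Fmod was -0.0172 in IZ against BZ2, then 0.99 and 1.32. Lum was -0.30 in IZ against BZ2, then 0.92 and 0.56. At the outer surface against inner muscle, Prelp was 0.19 at 3 dpi, then -2.20 and -2.10, and Aspn 0.0531, then -0.16 and -0.16. These rest on 8, 1 and 0 surface UMIs of Prelp and 6, 5 and 2 of Aspn, and where a sum was 0 the ratio was set by 0.5 counts added to both sums. The 0 UMIs of Prelp allow up to 80.1 CPM, above the 56.9 CPM of the inner spots, so no direction is read from these ratios.

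The 5 dpi section labelled male had 623 spots with counts outside the hand-drawn tissue mask, holding 2428772 UMIs, of which 560 passed the quality filter and entered only the alternative that adds them. With them the IZ of that section grew from 684 to 1131 spots, a gain of 447, and the control set beside them is an uninjured heart. In the 560 spots Bgn had 2396 CPM against 247, Lum 228 against 132, Fmod 54.8 against 0.802, Ogn 165 against 93.3 and Aspn 174 against 30.2, while Dcn had 465 against 524 and Prelp 50.3 against 52.4. Why these spots were left out of the mask was not tested.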

How the results depend on the processing

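Over single members, 518 of 595 alternatives kept their call status, where a change of sign counted as kept if neither fit passed. Of the others 53 lost a call, 23 gained one and 1 reversed: Dcn in IZ against RZ was 0.0654 without TMM scaling. In BZ1 against RZ, 7 genes were called, against 73 at a zone limit of 0.4 (with 2 members higher), 13 without scaling, 84 with DESeq2, 113 without a filter and 0 without the section block. In BZ2 against RZ, 851 genes fell to 542 at a limit of 0.6 and 56 without the block, where 0 members were called. In IZ against BZ2, 2 members were higher, against 0 at a limit of 0.4, with DESeq2 or without the block, 4 at a limit of 0.6, without scaling or without cardiomyocyte genes in the library size, and 1 (with 1 lower) with spots outside the mask. In IZ against RZ, 1 member was lower, against 0 at a limit of 0.6, without scaling, without cardiomyocyte genes or without the block, and 2 without a filter. In core against rim, 2293 genes became 1415 with DESeq2 and 1024 without the block, where 0 members were lower. Over single members, 17 of 84 alternatives of core against rim lost a call and 1 gained one. At the IZ surface, 110 genes became 19 with DESeq2, 0 without the block and 228 with spots outside the mask. Of its 2 lower members, 1 held without scaling or without cardiomyocyte genes, and 0 with DESeq2 or without the block. At the muscle surface, 6 genes became 10 at a limit of 0.4 or without scaling, 0 at a limit of 0.6, with DESeq2 or without the block, 2 without a filter and 12 with spots outside the mask. Against the control, 3 members passed the 2-fold rule, and 5 with all UMIs as the denominator. The causes were not tested.

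Leaving out each section in turn gave 0 to 68 genes in BZ1 against RZ, 158 to 705 in BZ2 against RZ (2 to 4 members higher), 2130 to 2926 in IZ against BZ2 (0 to 4 higher), 4163 to 4624 in IZ against RZ (4 to 5 higher, 0 to 2 lower), 1330 to 2267 in core against rim (5 lower each time), 6 to 172 at the IZ surface (0 to 2 lower) and 2 to 10 at the muscle surface. No paired analysis between groups was possible because each section came from a different heart. Within a heart, the zones were paired by the section block in the tests above. Of 21 pairs of a member and its most alike genes, 18 recurred at a pseudocount of 5, and the 3 that did not were those of Fmod.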
